A study of Homo sapiens with 6 samples.

Results

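RNA of the D-type cyclins, the kinases CDK4 and CDK6, their inhibitors and the retinoblastoma gene RB1 was followed across 6 samples of the human bladder cancer line RT4 and its derivatives. The 10 genes were chosen by name, with their measured differences from RT4P live cells already known, so all values are descriptions. All 16 of their probes were used, out of 34210 genes and 47322 probes on the array. Each sample had 1 Illumina HumanHT-12 version 4 array. Spheres were RT4P cells that had received 1 uM cisplatin with 20 mM lithium chloride for 24 h and then had a further 4 h of transformation before pure spheres were isolated. Blebbishields, the bodies left when RT4P cells undergo apoptosis, came from the same 24 h treatment, and those able and unable to form spheres were not separated. Live cells of 4 kinds received no treatment. RT4P-BSE2 had gone 2 times in a row through the blebbishield program. RT4v6 was the line after 6 passages in mice. PBSHMS is a line from the fusion of RT4 blebbishields with human blood mononuclear cells. RT4P live cells, the RT4 line as obtained from the ATCC repository, were the control. The labels do not say whether a derived line was cloned.

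A D-type cyclin binds CDK4 or CDK6, and the complex phosphorylates the RB1 protein, which frees E2F factors to switch on genes for DNA synthesis. INK4 proteins bind CDK4 and CDK6 and keep cyclins away, while the CIP/KIP proteins bind the assembled cyclin and kinase complexes. Glycogen synthase kinase 3, which lithium inhibits, marks cyclin D1 protein for destruction, so mRNA and protein of this cyclin can part ways. In urothelial carcinoma the INK4 locus is often deleted, and CCND1 and the p53 and RB1 pathways are often altered.

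Each group was 1 array, so the spread between replicates is unknown and nothing was tested. Values are normalized intensities on the log2 scale after background correction, and differences are the first named sample minus the second. Each difference describes 2 arrays. A probe was detected on an array when its detection p-value, which sets it against the negative controls, was under 0.01. A gene was called higher or lower at a difference of 2-fold or more, and where it was detected on 1 of the 2 arrays its fold is a bound, written "at least". As a gauge of scatter, the disagreement between 2 probes of the same gene had an SD of 0.41 on the log2 scale for blebbishields against RT4P live cells, 0.34 for spheres against blebbishields and 0.22 to 0.26 in the other 4 comparisons. This probe SD is not replicate error. Levels of different probes cannot be set against each other. The blebbishield array was the dimmest, with 14749 probes detected and a mean signal of 263.2, against 15788 to 17593 probes and 349.5 to 389.2 on the other arrays, and the part of this in blebbishield differences was not tested. All 15 urothelial markers examined, among them keratins, uroplakins and GATA3, were detected on every array. Some of them moved against RT4P live cells. KRT20 was 12.1-fold higher in spheres, 8.57-fold in blebbishields, 4.72-fold in RT4P-BSE2 and 3.49-fold in RT4v6. UPK1A and UPK2 were 2.47-fold to 3.70-fold higher in the 3 derived lines, and UPK3A 2.43-fold in RT4P-BSE2 and 2.49-fold in PBSHMS. UPK1B was 2.71-fold lower in blebbishields but 2.32-fold higher in PBSHMS, and KRT18 was 2.1-fold lower in RT4P-BSE2. Of all measured genes, 6.32% were called in spheres, 11.9% in blebbishields, 1.58% in RT4P-BSE2, 3.55% in RT4v6 and 3.84% in PBSHMS. The part of these markers in the results was not tested. Fewer cells of a kind and less RNA per cell cannot be told apart in these bulk samples.

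Of the 10 genes, 6 were detected on all 6 arrays, namely CCND1, CCND2, CCND3, CDK4, CDKN1B and RB1. CDK6 was detected on 2 arrays and CDKN2B on 1, while CDKN2A and CDKN1C were detected on 0 arrays. Among the 10 genes and 6 comparisons the single call was CCND2 in RT4v6 against RT4P live cells, a comparison in which 3.55% of all measured genes were called.

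**Figure D1:**
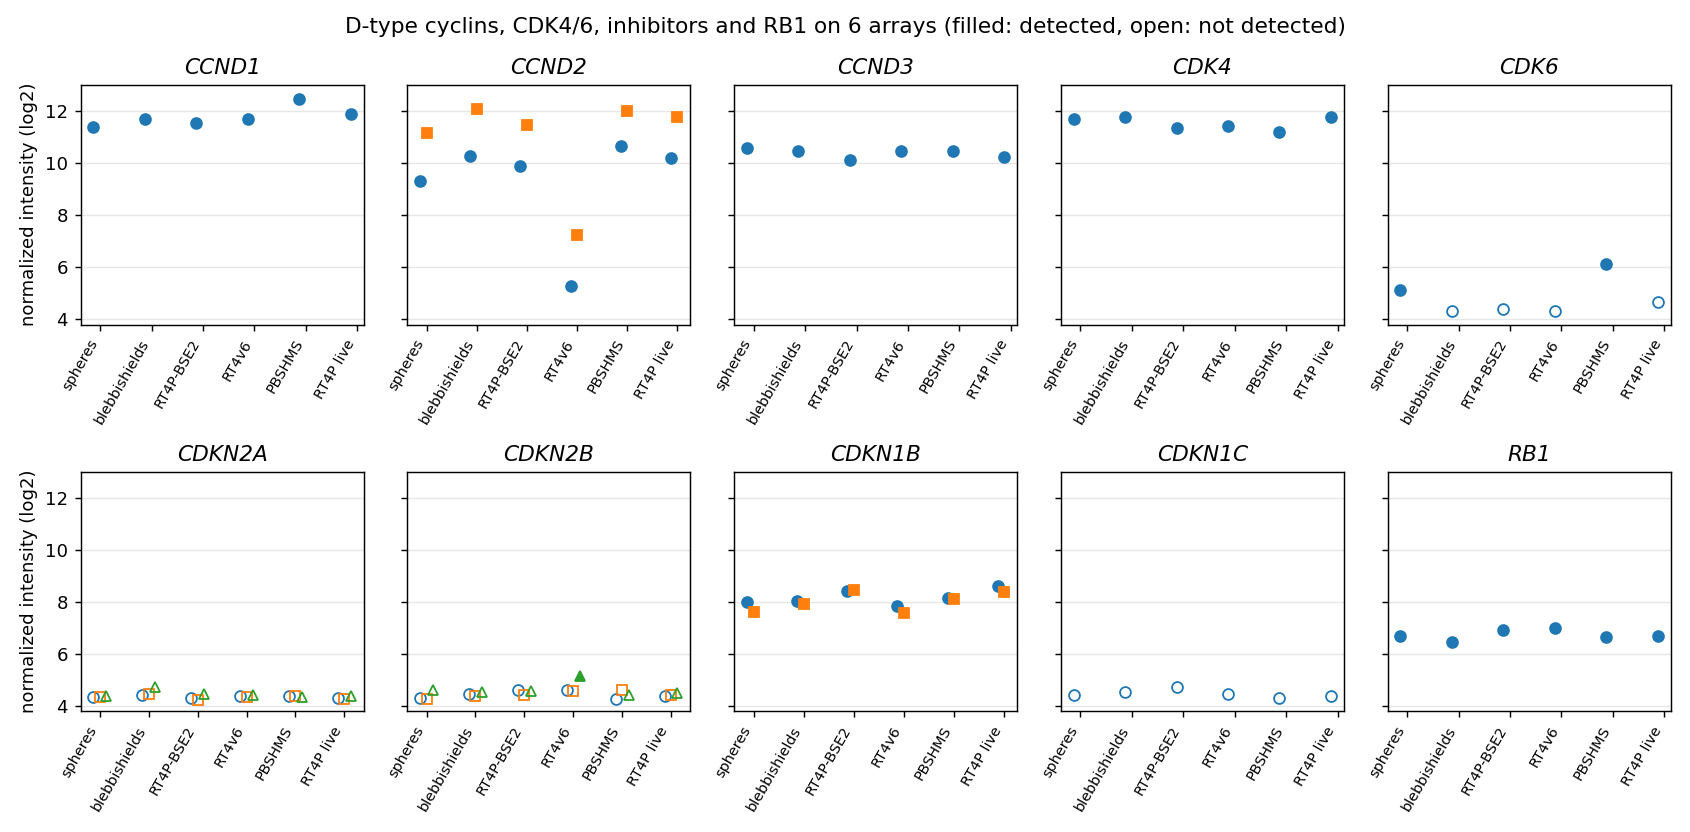
Normalized intensity on the log2 scale (vertical axis) of every probe of the 10 genes on each of the 6 arrays (horizontal axis). Each marker shape is 1 probe, filled where detected and open where not. CCND2 drops on the RT4v6 array with both probes, CDK6 is filled only for spheres and PBSHMS, and CDKN2A and CDKN1C are open throughout.

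CCND2, the gene for cyclin D2, was far lower in RT4v6 than in RT4P live cells, though both probes were still detected. Its brighter probe, ILMN_2067656, had a non-normalized signal of 243.7 in RT4v6 cells, against 3941.7 in RT4P live cells. On the other arrays the same probe gave 2717.6 in spheres, 2971.5 in blebbishields, 3034 in RT4P-BSE2 and 4210.5 in PBSHMS. RT4v6 thus stood alone below the other 5 arrays. The second probe, ILMN_1667081, had a signal of 118.5 in RT4v6, little above that array's median of 102.1 and with a detection p-value of 0.00519, against 1359.8 in RT4P live cells. It gave 814.5 in spheres, 840 in blebbishields, 1086.4 in RT4P-BSE2 and 1696.2 in PBSHMS. By signal, both probes ranked RT4v6 lowest and PBSHMS highest.

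After normalization the brighter CCND2 probe stood at 7.25 in RT4v6 and 11.77 in RT4P live cells, a log2 difference of -4.51 or 22.8-fold lower. The second probe stood at 5.28 in RT4v6 and 10.20 in RT4P live cells, a log2 difference of -4.92 or 30.3-fold lower. The gap between the probes, 0.41, was small beside either difference, and the probe SD of this comparison was 0.24. Among 14043 genes measured in RT4v6 against RT4P live cells, 3.55% were called, 1.14% higher and 2.41% lower, and CCND2 had the third lowest difference (rank 3 from the lowest). Across the alternative settings its difference ran between -4.72 and -3.94, the smallest sizes coming where no background was subtracted.

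**Figure D2:**
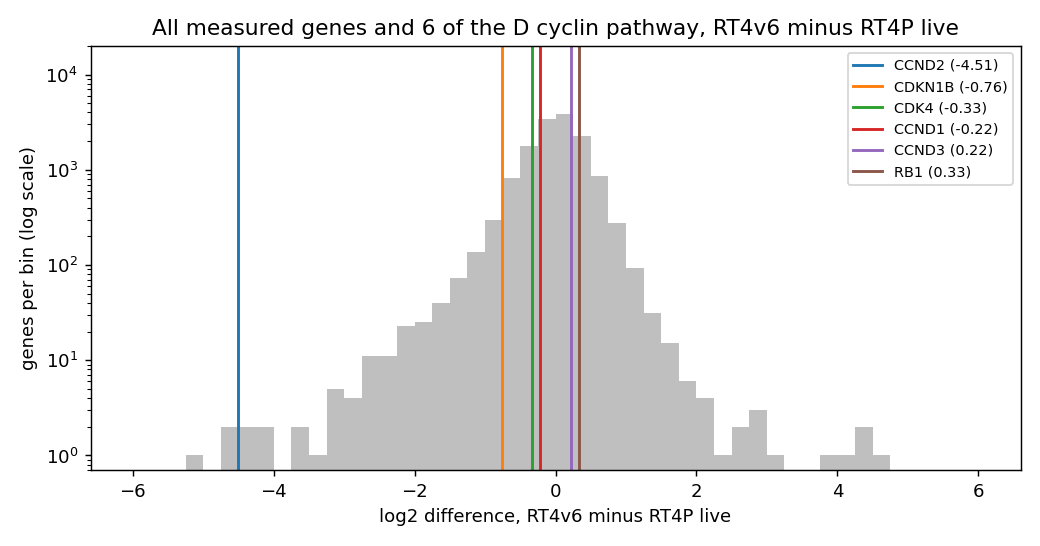
Number of genes per bin of 0.25 log2 units (vertical axis, log scale) by their log2 difference, RT4v6 minus RT4P live (horizontal axis). Coloured lines mark 6 genes of the D cyclin pathway: CCND2 lies at -4.51 in the far left tail, and the other 5 lie between -0.76 and 0.33 in the body of the distribution.

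The other D-type cyclins in RT4v6 differed little from RT4P live cells. CCND1, for cyclin D1, stood at 11.69 in RT4v6 and 11.90 in RT4P live cells, a difference of -0.22. CCND3, for cyclin D3, stood at 10.45 in RT4v6 and 10.23 in RT4P live cells, a difference of 0.22. Both differences were smaller than the probe SD of 0.24.

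By the distance between profiles centred on their own means over the 6 arrays, the genes most like CCND2 among 10446 genes detected on every array were CALD1, LCP1 and GAMT. CALD1, for the actin-binding protein caldesmon, lay at a root mean square distance of 0.59 on the log2 scale. It stood at 5.22 in RT4v6 and 9.58 in RT4P live cells. LCP1, for the actin-bundling protein L-plastin, lay at 0.78, with 8.47 in RT4v6 and 11.58 in RT4P live cells. GAMT, for an enzyme of creatine synthesis, lay at 0.84, with 6.23 in RT4v6 and 8.50 in RT4P live cells. All 3 had their lowest value on the RT4v6 array. With 6 arrays and 1 far value, likeness here means mainly a drop in RT4v6, and their order on the other arrays differed from that of CCND2.

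**Figure D3:**
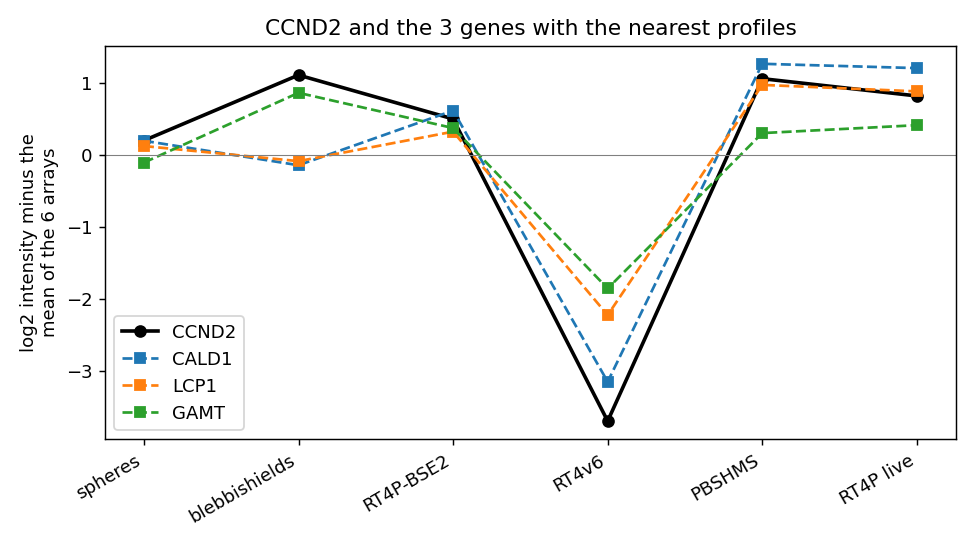
Normalized log2 intensity minus the gene's mean over the 6 arrays (vertical axis) for CCND2 and the 3 genes with the nearest profiles, by array (horizontal axis). Lines only join the points of a gene. All 4 genes drop on the RT4v6 array, while on the blebbishield array CCND2 and GAMT are above their means and CALD1 and LCP1 are slightly below.

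In the treated RT4P samples CCND2 was below its RT4P live level in spheres but not in blebbishields. The brighter probe stood at 11.15 in spheres and 11.77 in RT4P live cells, a difference of -0.62, and the second probe gave -0.90. These differences were under 2-fold but over the probe SD of 0.26. By size the brighter probe ranked 2688 of 14529 measured genes. In blebbishields the 2 probes stood 0.29 and 0.05 above RT4P live cells, both inside the probe SD of 0.41. The sign of the brighter probe turned without between-array normalization, to -0.41, and with arrays shifted to equal medians of all probes, to -0.28. Under these settings the median of all measured genes was -0.70 and -0.56 in turn. Those medians also belong beside the blebbishield values under these settings given for other genes below. Between spheres and blebbishields the brighter probe stood at 11.15 in spheres and 12.06 in blebbishields, a difference of -0.91, and the second probe gave -0.96. That difference reached 2-fold, at -1.09, when arrays were shifted to equal medians of the probes detected on all 6 arrays. It shrank to -0.14 without between-array normalization, where the median of all measured genes was 0.76.

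CCND1 moved over a narrower span of the 6 arrays. Its single probe stood at 11.38 in spheres, 11.70 in blebbishields, 11.53 in RT4P-BSE2, 11.69 in RT4v6 and 12.45 in PBSHMS, against 11.90 in RT4P live cells. PBSHMS was highest and spheres lowest, and only PBSHMS was above the control. The difference was 0.55 in PBSHMS, -0.52 in spheres and -0.37 in RT4P-BSE2, each under 2-fold and over its probe SD of 0.24, 0.26 and 0.22. By size it ranked only 2193 of 13640 measured genes in PBSHMS, 3515 of 14529 in spheres and 2663 of 14253 in RT4P-BSE2. The blebbishield difference of -0.20 and the RT4v6 difference of -0.22 were inside their probe SDs, though in blebbishields it was -0.91 without between-array normalization and -0.77 with arrays shifted to equal medians of all probes. The sphere and blebbishield arrays differed by -0.32, which turned to 0.44 without between-array normalization, where the median of all measured genes was 0.76. The nearest profiles to CCND1 were those of PPP1R13L, FKSG30 and PRSS22, each at a distance of 0.09. Like CCND1, these 3 genes had their highest value in PBSHMS and their lowest in spheres.

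CCND3 was the steadiest of the 3 cyclins. Its probe stood at 10.58 in spheres, 10.48 in blebbishields, 10.10 in RT4P-BSE2, 10.45 in RT4v6 and 10.46 in PBSHMS, against 10.23 in RT4P live cells. The sphere difference of 0.36 was over the probe SD of 0.26, but ranked only 5832 of 14529 measured genes by size. The blebbishield difference of 0.25 was inside its probe SD and turned to -0.51 without between-array normalization. Side by side, PBSHMS minus RT4P live gave 0.55 for CCND1 and 0.24 for both CCND2 and CCND3, and RT4P-BSE2 minus RT4P live gave -0.37 for CCND1, -0.32 for CCND2 and -0.12 for CCND3.

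**Figure D4:**
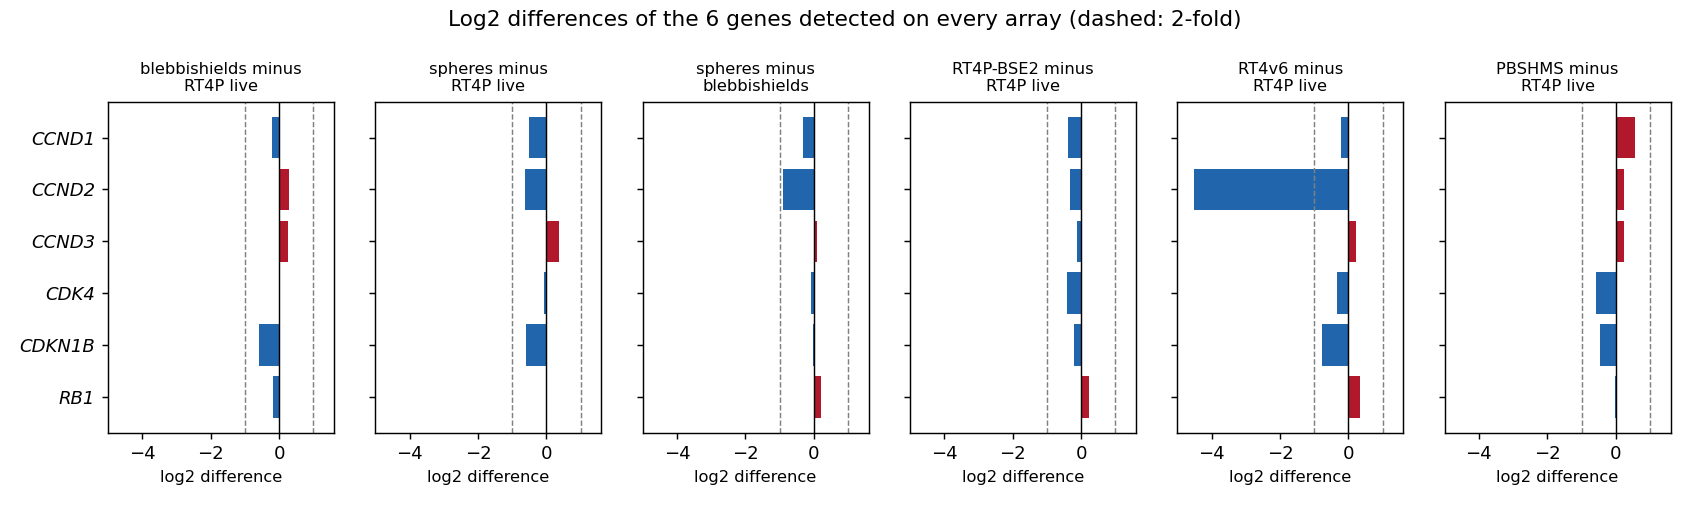
Log2 differences (horizontal axis) of the 6 genes detected on every array, in each of the 6 comparisons, with red bars above 0 and blue bars below 0. Dashed lines mark 2-fold. CCND2 in RT4v6, at -4.51, is the only bar past a dashed line.

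Of the partner kinases, CDK4 was detected everywhere and CDK6 was near background. The CDK4 probe stood at 11.69 in spheres, 11.78 in blebbishields, 11.36 in RT4P-BSE2, 11.44 in RT4v6 and 11.20 in PBSHMS, against 11.77 in RT4P live cells. All 3 derived live lines lay below the control, by -0.41 in RT4P-BSE2, -0.33 in RT4v6 and -0.57 in PBSHMS, each over its probe SD and under 2-fold. These 3 differences share the RT4P live array. By size they ranked 2208 of 14253 measured genes in RT4P-BSE2, 5153 of 14043 in RT4v6 and 2037 of 13640 in PBSHMS. The sphere difference of -0.07 and the blebbishield difference of 0.01 were inside the probe SD. Without between-array normalization the blebbishield difference was -0.71, where the median of all measured genes was -0.70.

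The CDK6 probe had non-normalized signals of 146.8 in PBSHMS and 122.8 in spheres, where it was detected, in spheres with a detection p-value of 0.0026. It was not detected in blebbishields at a signal of 80.8, in RT4P-BSE2 at 96.5, in RT4v6 at 90.6 or in RT4P live cells at 106, where its detection p-value was 0.14805. CDK6 was therefore at least 1.99-fold higher in PBSHMS than in RT4P live cells, with normalized values of 6.11 in PBSHMS and 4.66, undetected, in RT4P live cells. The bound lies just under the 2-fold line, and the call depended on the setting. It was 1.04 on the log2 scale with the blebbishield array left out of the normalization and 0.38 without background correction. For spheres the bound was 0.00, so no fold is given. PBSHMS has a leukocyte parent. Of 12 leukocyte markers, among them PTPRC, CD3E and CD14, 0 were detected in PBSHMS and 1, CD79A, in RT4P live cells. Their summed normalized intensity was 299.8 in PBSHMS and 306.8 in RT4P live cells. In spheres 4 of the 12 were detected, with a sum of 331.9, and in blebbishields 2, with a sum of 483.4, the highest of the 6 arrays. The part of leukocyte RNA in the CDK6 values was not tested.

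The INK4 inhibitors CDKN2A, which encodes p16 and the separate protein ARF, and CDKN2B, which encodes p15, gave little or no signal on any array. The 3 CDKN2A probes had non-normalized signals between 86.3 and 98.9 on the 6 arrays, none detected, with normalized values between 4.25 and 4.72. The lowest of their detection p-values was 0.14026, in blebbishields. CDKN2A was thus not detectable in PBSHMS either, where its 3 probes had signals of 92.4, 92.5 and 90.4. For CDKN2B, 1 of 3 probes was detected, on the RT4v6 array alone, at a signal of 115.4 and a detection p-value of 0.00649, against a signal of 101.6 and a detection p-value of 0.2961 in RT4P live cells. Its bound was 0.06 on the log2 scale, and the other 2 CDKN2B probes were not detected in RT4v6, so no difference is read from it.

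Of the CIP/KIP inhibitors, CDKN1B, which encodes p27, was below the RT4P live level on most arrays, and CDKN1C, which encodes p57, was not detected. The CDKN1B probe ILMN_1722811 stood at 8.01 in spheres, 8.03 in blebbishields, 8.42 in RT4P-BSE2, 7.85 in RT4v6 and 8.15 in PBSHMS, against 8.61 in RT4P live cells. The second probe, ILMN_2196347, stood at 7.60 in spheres, 7.91 in blebbishields, 8.45 in RT4P-BSE2, 7.58 in RT4v6 and 8.10 in PBSHMS, against 8.39 in RT4P live cells. Both probes were lowest in RT4v6, and the second put RT4P-BSE2 just above the control.

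The CDKN1B differences in RT4v6 were -0.76 and -0.81 by the 2 probes, or 1.69-fold and 1.75-fold lower, both over the probe SD of 0.24. In spheres they were -0.61 and -0.80, and in PBSHMS -0.47 and -0.29. In blebbishields they were -0.58 and -0.48, which passed 2-fold at -1.44 without between-array normalization and at -1.30 with arrays shifted to equal medians of all probes. In RT4P-BSE2 they were -0.20 and 0.05, inside the probe SD of 0.22. All of these are differences from the same RT4P live array. By size, ILMN_1722811 ranked 1041 of 14043 measured genes in RT4v6, 2776 of 14529 in spheres and 2945 of 13640 in PBSHMS. CDKN1C had signals between 88.4 and 107.4, its lowest detection p-value being 0.09351 in RT4P-BSE2.

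RB1, the substrate of the D-type cyclin kinases, was detected on all arrays, and its differences reached at most 0.33 in size on the log2 scale with quantile normalization. Its probe stood at 6.70 in spheres, 6.48 in blebbishields, 6.92 in RT4P-BSE2, 7.01 in RT4v6 and 6.67 in PBSHMS, against 6.68 in RT4P live cells. RT4v6 was highest, at a difference of 0.33, and RT4P-BSE2 next, at 0.24, both over their probe SDs and under 2-fold. By size, RB1 ranked only 5118 of 14043 measured genes in RT4v6 and 5139 of 14253 in RT4P-BSE2. In blebbishields the difference from RT4P live cells was -0.19, inside the probe SD of 0.41, but -0.91 without between-array normalization and -0.77 with equal medians of all probes. Between spheres and blebbishields the difference of 0.21 was inside the probe SD. It came to 1.03 without between-array normalization, where the median of all measured genes was 0.76.

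The 10 genes were set beside all measured genes in each comparison. In blebbishields against RT4P live cells 0 of 6 measured were called, where 11.9% of 13712 measured genes were. The 6 had a median difference of -0.09, and all measured genes one of 0.00. In spheres against RT4P live cells 0 of 7 were called (6.32% of all), with a median of -0.07, and in spheres against blebbishields 0 of 7 (9.05%), with a median of -0.03. In RT4P-BSE2 against RT4P live cells 0 of 6 were called (1.58%), with a median of -0.26, and in PBSHMS 0 of 7 (3.84%), with a median of 0.24. In RT4v6 against RT4P live cells 1 of 7 was called (3.55%), with a median of -0.22. With 6 or 7 genes measured, these counts do not set the genes apart from the rest.

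Genes around the pathway were taken as lists and counted the same way. Among 4 other CDK inhibitors, CDKN1A and CDKN2C held the called differences. CDKN1A, which encodes p21 and is a p53 target, was 2.65-fold higher in blebbishields than in RT4P live cells, at 13.40 in blebbishields and 11.99 in RT4P live cells. It was 2.03-fold lower in spheres than in blebbishields, at 12.38 in spheres. Its second probe, detected on the blebbishield array alone, stood at 8.35 there and at 4.47, undetected, in RT4P live cells. In blebbishields 7.1% of all measured genes were called higher and 4.76% lower, and in spheres against blebbishields 3.03% and 6.02%. Without between-array normalization both differences of the brighter CDKN1A probe were under 2-fold, at 0.82 in blebbishields and -0.43 between spheres and blebbishields. The second probe had a non-normalized signal of 271 in blebbishields, against undetected signals of 99.8 in RT4P live cells and 107.8 in spheres.

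CDKN2C encodes p18, another INK4 protein, and its brightest probe had a signal of 230.5 in RT4P live cells. It was not detected in spheres at 117.7, in blebbishields at 95 or in RT4v6 at 95.7, and was detected in RT4P-BSE2 at 160.4 and in PBSHMS at 150.7. It was at least 4.30-fold lower in spheres, at least 3.12-fold lower in blebbishields and at least 3.98-fold lower in RT4v6 than in RT4P live cells. Of all measured genes, 3.32% were called lower in spheres, 4.76% in blebbishields and 2.41% in RT4v6. In RT4P-BSE2 and PBSHMS the log2 differences from RT4P live cells were -0.91 and -0.93, under 2-fold. All 5 samples were thus below the RT4P live array, whose own noise enters each of these differences. Without background correction the bounds were -0.97 in spheres, -0.81 in blebbishields and -0.93 in RT4v6, each under 2-fold, so the calls were lost. Of the other 2 CDKN2C probes, 1 was detected on 0 arrays and 1 in RT4P live cells alone. The latter stood at 5.16 there, where the dimmest detected probe of that array stood at 5.11. The calls thus rest on the brightest probe.

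The remaining lists held 2 called genes, both in blebbishields, where 11.9% of all measured genes were called, so these counts do not set the lists apart. The RB family and E2F factors had 0 of 12 called in all 6 comparisons, with medians from -0.08 in RT4P-BSE2 to 0.10 in RT4v6. Cyclin E, cyclin A and CDK2 with its activating phosphatase CDC25A had 0 of 5 called, and the CDK-activating kinase genes 0 of 3. Among genes for the turnover of D cyclins and p27, 1 of 12 was called higher in blebbishields and 0 lower, and 0 were called in the other 5 comparisons. That gene was GSK3B, for the lithium-sensitive kinase, 2.23-fold higher in blebbishields at 10.07, against 8.92 in RT4P live cells, though its difference came to 0.36 without between-array normalization. Of the 12 leukocyte markers, 2 were detected in blebbishields, CD14 and FCGR3A. Against RT4P live cells 3 of the 12 were measured, with 1 called higher and 0 lower. That marker, FCGR3A, was at least 5.37-fold higher, at 7.54 in blebbishields and 4.75, undetected, in RT4P live cells. Its part beside CDKN1A, GSK3B and TYMS was not tested. SKP2, the receptor that sends p27 protein to the proteasome, had a difference of 0.36 in RT4v6, under 2-fold. The 13 measured genes of its list had a median of -0.01 there.

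E2F target genes, which include replication genes such as PCNA and the MCM helicase subunits, had 1 of 18 called higher and 0 lower in blebbishields, with a median of -0.04. Without between-array normalization that median was -0.85, and those of the other 5 lists lay between -0.95 and -0.79, where the median of all measured genes was -0.70. The called gene was TYMS, for thymidylate synthase, 2.21-fold higher at 11.22 in blebbishields and 10.07 in RT4P live cells, or 0.39 on the log2 scale without between-array normalization. In the other comparisons 0 of 18 were called. Medians were 0.18 in spheres, -0.27 in RT4P-BSE2, 0.02 in RT4v6 and -0.21 in PBSHMS, all against RT4P live cells. In RT4P-BSE2, 14 of 18 lay below 0 and 4 above, with MCM5 at -0.79, CDT1 at -0.72 and MCM6 at -0.70. In PBSHMS, 15 lay below 0 and 2 above. Both comparisons share the RT4P live array. Over all measured genes the median was -0.01 in RT4P-BSE2 and 0.00 in PBSHMS, and their share below 0 is not given here. The shares of genes called at 2-fold or more belong beside the counts of calls, not beside these counts of signs. In the RT4P-BSE2 comparison 1.3% of all measured genes were called higher and 0.274% lower, in PBSHMS 1.81% and 2.03%, and in spheres against RT4P live cells 3% and 3.32%.

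**Figure D5:**
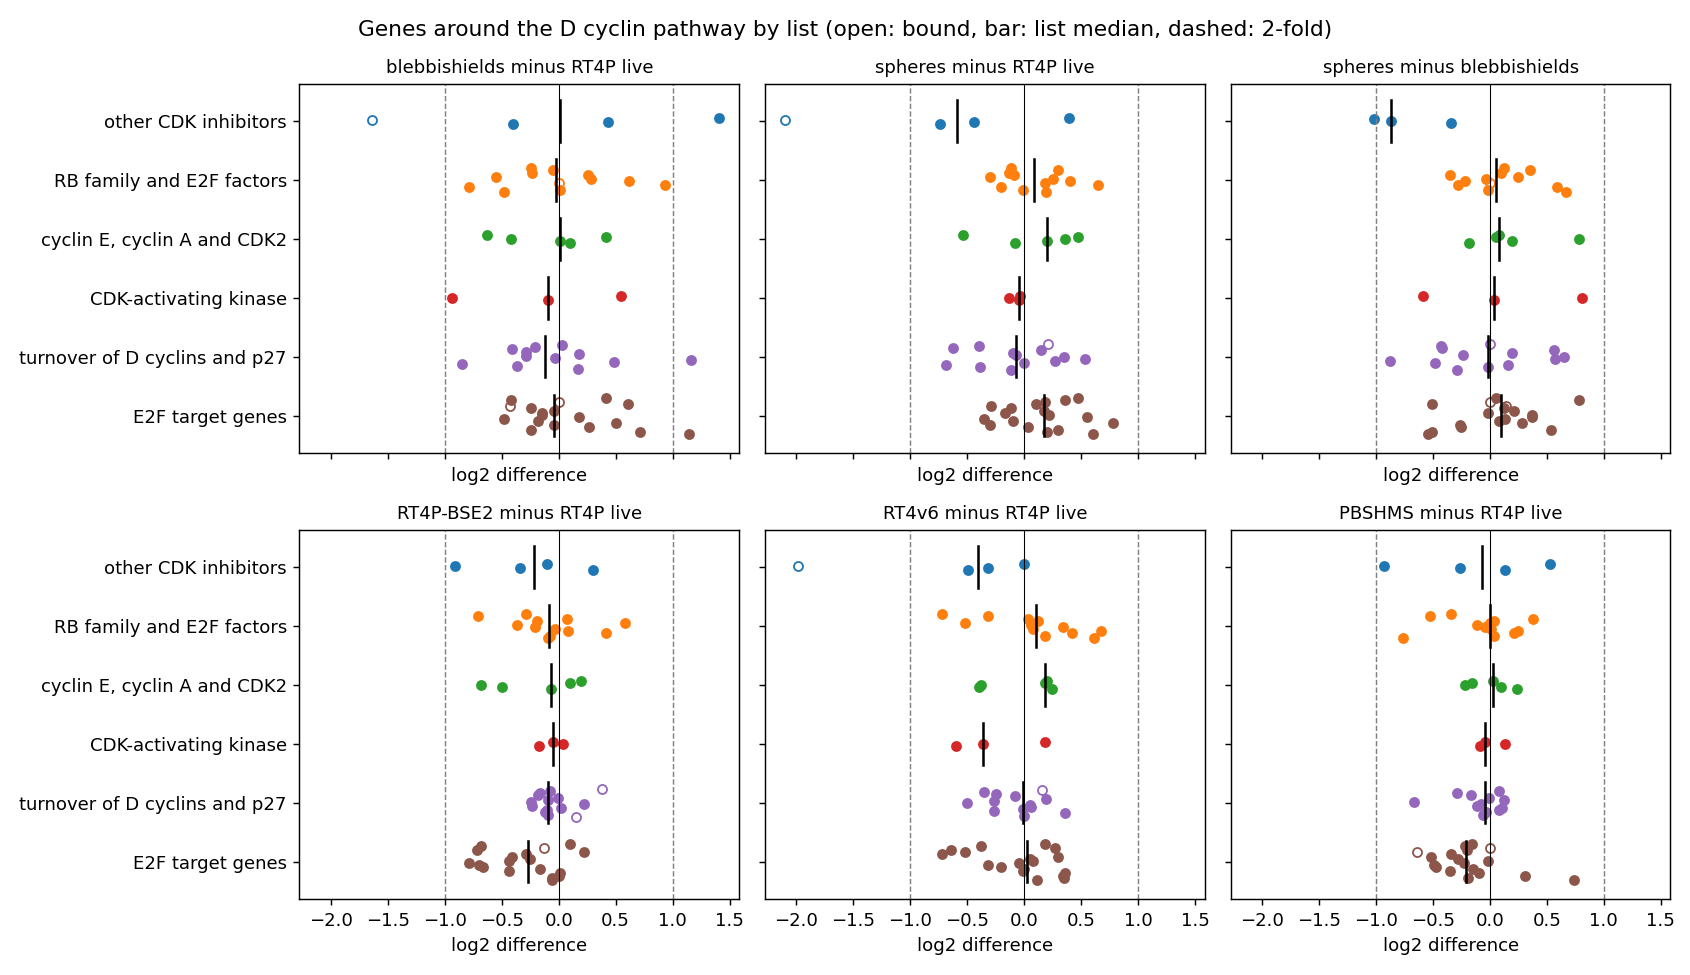
Log2 differences (horizontal axis) of the genes of 6 lists around the D cyclin pathway (rows), 1 panel per comparison. Open points are bounds, black bars are list medians and dashed lines mark 2-fold. CDKN2C and CDKN1A among the other CDK inhibitors, GSK3B and TYMS are the points past a dashed line, and the RB and E2F row stays inside the lines in every panel.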

How the data were processed

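RNA levels were measured in 6 samples, each a group of its own by its labels. The authors deposited the non-normalized signal intensity of 47322 probes on each array and, per the file headers, the detection p-value of every signal. A second deposited table holds processed intensity values, which are linear and share the same quantiles on every array, as the values show. Per the submitters' processing notes the software was GenomeStudio (version not given in the sources used here). In R 4.3.3, limma 3.58.1 corrected the background by normexp using negative controls inferred from detection p-values, with an offset of 16, followed by quantile normalization of the 6 arrays and log2 (neqc). Neither table gives bead numbers, and no genome build is named.

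Of 34694 names in the table, 17590 were current symbols of RefSeq (GRCh38.p14), 3440 were updated from an older symbol or other letter case, and 13664 stayed as given. A gene entered a comparison when 1 or both arrays gave a probe a detection p-value under 0.01, and its brightest such probe by the mean over 6 arrays stood for it. Where only 1 array detected it, the other took the value of its dimmest detected probe, and bounds that came out opposite in sign were set to 0. Counts take differences of 2-fold or more. No test was run, since 1 array per group allows none, and the number of arrays limits the precision. For the probe SD, the log2 differences of the 2 brightest probes of each gene were subtracted, and the SD over genes was divided by the square root of 2. Only the step that takes differences and calls genes was tested, on simulated normalized values. Background correction, normalization, the probe SD and the bounds were not part of that test. The 10 genes and the lists were chosen with earlier results of these data known. The text names the 10 genes, list members by size of difference (up to 4 a list), and the 3 nearest profiles of each of the 10 detected on all arrays and spanning at least 1 on the log2 scale. Alternatives were other scalings, no background correction, an offset of 50, detection at 0.05 or none, the mean over probes and the authors' processed values.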

Additional observations from a re-analysis of the deposited data

How the results depend on the processing

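The call of CCND2 in RT4v6 held under all 10 alternatives, and 36 of 387 values of the 10 genes moved by at least the probe SD. With arrays shifted to equal medians of all probes, the count of the 10 genes called in blebbishields against RT4P live cells was 1 (CDKN1B) in place of 0, and the share of all measured genes called was 26.18% there and 24.51% in spheres against blebbishields. Without between-array normalization, 1 gene was called in blebbishields (CDKN1B, 33.67% of all genes) and 1 in spheres against blebbishields (RB1, 34.11%); the median of all genes was then -0.70 and 0.76. With arrays shifted to equal medians of the probes detected on all 6 arrays, added after the data were seen, 1 was called in spheres against blebbishields (CCND2) and 1 in PBSHMS (CDK6). CDK6 was also the 1 gene called in PBSHMS at a detection p-value under 0.05, without a detection filter and, also added, without the blebbishield array in the normalization. Given in the order blebbishields, spheres, RT4P-BSE2, RT4v6 and PBSHMS against RT4P live cells, the share of all genes called was 5.93%, 2.59%, 0.73%, 1.17% and 1.25% without background correction, 6.02%, 2.65%, 0.74%, 1.27% and 1.36% by the authors' processed values, and 6.4%, 3.12%, 0.86%, 1.93% and 1.98% without a detection filter. For spheres against blebbishields these were 4.04%, 4.16% and 5.04%. With an offset of 50 the share was 3.79% in spheres, 1.0% in RT4P-BSE2, 1.9% in RT4v6, 2.1% in PBSHMS and 5.66% in spheres against blebbishields. The causes were not tested. Of higher and lower calls in blebbishields, 59.9% were higher, 9.2% without between-array normalization, 13.4% with equal medians of all probes and 72.8% with equal medians of detected probes. In spheres against blebbishields 33.5% were higher, and 95.8%, 91.8% and 18.7% under these settings. Without between-array normalization the share of higher calls was 59.1% in spheres, in place of 47.5%, and 31.4% in PBSHMS, in place of 47.1%. No paired analysis was possible because each group has 1 array. CDKN2A and CDKN1C were detected on 0 arrays, so no difference was measured, and CDK6 and CDKN2B allowed bounds only.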

Other observations

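The place of CCND2 among its neighbours on the chromosome was looked at after its values were seen. Of the 5 protein-coding genes on each side in the RefSeq order, 7 of 10 were measured in RT4v6 against RT4P live cells. Of these 7, 1 was called, lower, where 3.55% of all measured genes were called and 2.41% were called lower. With 7 genes measured, this count does not set the neighbours apart from the rest. The next genes on each side were PARP11, not detected in RT4v6 and with a bound of -0.74, and TIGAR, an enzyme of sugar phosphate metabolism, at -0.29 with 8.65 in RT4v6 and 8.94 in RT4P live cells. TEAD4, a transcription factor of the Hippo pathway and the outermost of the 5 on its side, stood at 6.25 in RT4v6 and 7.62 in RT4P live cells, a difference of -1.38. RAD51AP1, a DNA repair gene at the other end, differed by 0.10. The other measured neighbours were TSPAN9, between TEAD4 and PARP11, at 0.15, FERRY3 at 0.03 and FGF23 with a bound of -0.03.

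CDKN2A and CDKN2B lie next to each other, and their flanks were looked at in the same way. Of 10 protein-coding neighbours, 9 had a probe, 2 were detected on all 6 arrays and 7 on 0 arrays. Of all 34210 genes, 30.6% were detected on all 6 arrays and 52.5% on 0 arrays, so these counts of 9 do not set the flanks apart. The 7 include MTAP, the methylthioadenosine phosphorylase gene beside CDKN2A, which had normalized values between 4.41 in RT4P live cells and 4.86 in spheres, its lowest detection p-value being 0.02987. DMRTA1, next to CDKN2B, was not detected either. Farther out, TUSC1 was detected on every array, at values between 6.07 in RT4P-BSE2 and 7.22 in blebbishields.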
